A study of Mus musculus with 13 samples.

Results

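The genes described here are 10 histone demethylase genes outside the Jmjd2 (Kdm4) family, followed in lines of mouse embryonic stem cells (ESCs) whose Jmjd2 genes can be deleted. They were Kdm2a, Kdm2b, Kdm3a, Kdm3b, Jmjd1c, Kdm5a, Kdm5b, Kdm6b, Phf2 and Kdm1a, chosen by name as relatives of the deleted genes. The array carried 14 probes for them among 55681 probes, and 13 of the 14 were kept among 30675 probes that were well above background. Each of the 10 genes had a kept probe, so all entered the test beside 22967 genes or other features in all. The comparison asked whether related demethylases are higher once Jmjd2 genes are deleted.

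C57Bl/6 mice were the source of all lines, per the labels, and CreERT2, a Cre recombinase that tamoxifen (OHT) activates, was inserted at Rosa26 in each. The genotype named 2ac was f/f for Jmjd2a (Kdm4a) and for Jmjd2c (Kdm4c) and comprised lines cl4, cl5 and cl6. The genotype named 2abc was also f/f for Jmjd2b (Kdm4b) and comprised cl324.9, cl324.13 and cl280.4. OHT cultures received 500 nM OHT for 12 days and were harvested after 6 further days, while control cultures of the same lines received none. All cultures were grown on gelatin in serum-free N2B27 with LIF, the MEK inhibitor PD0325901 and a GSK3 inhibitor. Since all lines carried both floxed alleles and CreERT2, the OHT treatment, Cre activity and the loss of Jmjd2 genes cannot be told apart in these comparisons. The unit of replication was the ESC line, with 3 lines a genotype.

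Most histone demethylases share the JmjC domain, which removes methyl groups from lysines by an oxidation that needs iron and 2-oxoglutarate. Kdm2a and Kdm2b act on H3K36 and bind unmethylated CpG-rich DNA through a CXXC zinc finger, and Kdm2b brings a form of Polycomb repressive complex 1 to CpG islands. Kdm3a, Kdm3b and Jmjd1c (also called Kdm3c) act on H3K9, Kdm5a and Kdm5b on H3K4, Kdm6b on H3K27, and Phf2 on H3K9. Kdm1a (Lsd1) is no JmjC protein. It is an amine oxidase that uses FAD, acts mainly on H3K4 and works in complexes with CoREST proteins and histone deacetylases. The Jmjd2 enzymes themselves act on H3K9 and H3K36, so Kdm2a, Kdm2b, the Kdm3 genes and Phf2 are the members whose substrates overlap with theirs.

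Of the members called lower below, Kdm2b and Kdm1a had upstream sequence at hand, and Kdm3b and Kdm6b had none. This sequence is shown because Kdm2b has separate outer and internal starts and its own long protein binds CpG-rich DNA. The 250 bases upstream of RefSeq starts (build GRCm38.p6) are printed 5′ to 3′ on the gene's strand, with every CpG in capitals. For Kdm2b these are an outer start (chr5:122989100-122989349, minus strand) and an internal start (chr5:122900351-122900600, minus strand), and for Kdm1a chr4:136602724-136602973 (minus strand).
Kdm2b outer: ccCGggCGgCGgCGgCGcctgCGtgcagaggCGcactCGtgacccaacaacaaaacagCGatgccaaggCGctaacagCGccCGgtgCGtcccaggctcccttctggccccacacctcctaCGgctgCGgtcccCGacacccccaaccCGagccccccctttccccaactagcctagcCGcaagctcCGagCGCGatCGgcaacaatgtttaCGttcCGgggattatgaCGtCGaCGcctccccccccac
Kdm2b internal: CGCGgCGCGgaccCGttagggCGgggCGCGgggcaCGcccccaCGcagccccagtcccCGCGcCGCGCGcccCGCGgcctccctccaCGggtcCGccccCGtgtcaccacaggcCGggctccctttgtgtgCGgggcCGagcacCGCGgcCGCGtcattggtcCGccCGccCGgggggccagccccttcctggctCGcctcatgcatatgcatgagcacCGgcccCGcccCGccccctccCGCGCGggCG
Kdm1a: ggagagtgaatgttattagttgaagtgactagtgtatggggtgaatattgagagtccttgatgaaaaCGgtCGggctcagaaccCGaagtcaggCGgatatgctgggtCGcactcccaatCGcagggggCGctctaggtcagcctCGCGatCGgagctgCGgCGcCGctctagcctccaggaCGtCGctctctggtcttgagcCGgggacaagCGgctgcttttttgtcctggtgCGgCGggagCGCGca

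The outer Kdm2b window held 27 CpGs, the internal one 38 and the Kdm1a window 21. Over 32851 such windows of all RefSeq starts the median was 6, and 8.56%, 1.88% and 16.3% of windows held at least as many CpGs as these. A further outer Kdm2b window (chr5:122988508-122988757, minus strand) held 12 CpGs, which 33.5% of windows reach, and the further internal one, which overlaps that printed, held 36. Windows were found for 6 of the 10 genes, 12 windows in all with 0 to 50 CpGs. The window with 50 was that of Phf2, a count matched or passed by 0.0944% of all windows. A GC box (GGGCGG on either strand) lay in 8 of the 12 windows, against 32.7% of all windows, and the octamer ATGCAAAT (either strand) in 0 of 12, against 1.6%. Windows of one gene can overlap, as do 2 of the 4 Kdm2b windows around the internal start, so the 12 are not independent. Which start each array probe reads was not known.

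The deletion itself was read from the targeted genes. Signals are given below in log2 units above or below the array's 75th percentile, and a change is OHT minus control within a line. Kdm4c changed by -2.90 in 2ac and -3.21 in 2abc, Kdm4b by 0.12 and -2.23, and Kdm4a by -0.74 and -0.67, which follows the labels. The positions of the probes relative to the deleted exons were not used here. On the 13 arrays 50.1 to 63.9% of probes were well above background, and 0 were saturated. All 10 markers of ESCs were above background on every array, with a summed level (linear, 1 being the 75th percentile) of 640 to 739 in controls and 617 to 709 after OHT in 2ac, and 634 to 668 and 591 to 622 in 2abc. Of the 10, Tfcp2l1 fell in both genotypes (-0.55 and -0.56), and Zfp42 (-0.84) and Sall4 (-0.50) fell in 2abc. Of 8 fibroblast markers, 4 were above background on every array and Postn and Dcn on 0 arrays. The summed level of those 8 in 2ac was 1.48 to 1.8 in controls and 1.62 to 4.21 after OHT. In 2abc it was 2.03 to 2.41 in controls and 1.63 to 2.05 after OHT. Col1a2 was higher in 2abc (1.16) and over the 6 lines (0.97), while Col1a1, Acta2 and Thy1 did not pass. Of 3 neural markers, Pax6 rose by 2.49 in 2ac and 2.99 in 2abc and Neurod1 by 3.01 and 2.77. Each passed the test given below, and Sox1 did not. The summed level of the 3 was 0.435 to 0.618 in controls and 1.11 to 2.44 after OHT. That of 5 endoderm markers was 0.66 to 0.677 in controls and 0.396 to 0.549 after OHT in 2ac. In 2abc it was 0.772 to 0.872 and 0.503 to 0.898. Over the 6 lines Gata6 was higher (0.80) and Sox7 (-1.48) and Sox17 (-1.32) lower. For 3 mesoderm markers, with Mixl1 at 0 arrays, the summed level was 0.705 to 0.945 in controls and 0.73 to 1.26 after OHT in 2ac. In 2abc it was 0.69 to 1.01 and 1.1 to 1.27. The part of these marker shifts in the results on the demethylase genes was not tested. In bulk RNA, fewer cells of a type and less RNA per cell cannot be told apart.

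None of the 10 genes passed the test with a higher level after OHT, in either genotype or over the 6 lines. With limma (adjusted p under 0.05 over all 22967 features), 0 of 10 were higher and 3 lower in 2ac (Kdm2b, Kdm6b and Kdm1a), 0 higher and 1 lower in 2abc (Kdm2b), and 0 higher and 3 lower over the 6 lines (Kdm2b, Kdm1a and Kdm3b). Of all features, 5.75% were called higher and 6.43% lower in 2ac, 8.72% and 8.97% in 2abc, and 13.9% and 14.6% over the 6 lines. With the arrays scaled by their median, 36.7% of the features called in 2ac were called higher and the rest lower, against 47.2% higher here. In that setting 1 of the 10 genes was called in 2ac, again lower. With an unadjusted p under 0.05, 0 members were higher and 5 lower in 2ac, 0 and 4 in 2abc, and 2 and 5 over the 6 lines. Of all features 29.1%, 33.9% and 40.7% reached that level in either direction. The median change of the 10 was -0.26, -0.11 and -0.17 in the 3 comparisons, and that of all features 0.02, -0.02 and 0.00. Among the probes that stood for the genes, the highest upper 95% bound was 0.34 in 2ac and 0.41 in 2abc, and 0.31 for the mean of the 6 lines. A second Kdm2a probe (A_55_P1971278) had upper bounds of 0.35, 0.50 and 0.36 in the fit of all kept probes. One alternative gave a member a higher call. In the authors' deposited table, fitted in the same way, Jmjd1c had a change of 0.26 in 2abc (limma adjusted p = 0.0336) and 0.20 over the 6 lines (adjusted p = 0.0181).

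**Figure D1:**
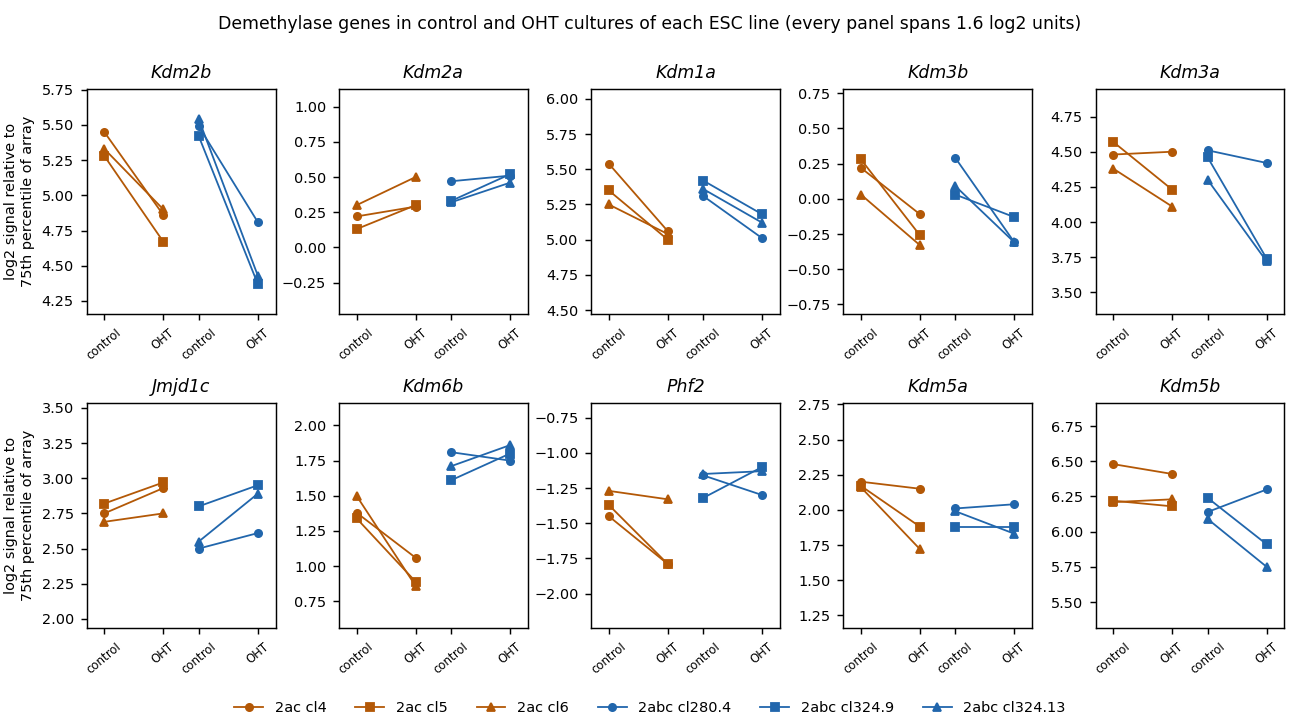
Log2 signal minus the array's 75th percentile (vertical axis) in control and OHT cultures (horizontal axis) of the 3 2ac lines (brown) and the 3 2abc lines (blue), for the probe that stands for each of the 10 genes. Each line of the plot joins the cultures of 1 ESC line, and every panel spans 1.6 log2 units. Kdm2b, Kdm1a and Kdm3b slope down in 6 of 6 lines, and Kdm6b only in the 2ac lines and, by 0.06, in cl280.4.

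Kdm2b, the H3K36 demethylase that also recruits Polycomb repressive complex 1, fell in both genotypes and had the lowest change of the 10 genes in each. Its probe (A_55_P2065149, chromosome 5) read 5.45, 5.28 and 5.33 in the controls of cl4, cl5 and cl6, and 4.86, 4.67 and 4.90 after OHT. In cl280.4, cl324.9 and cl324.13 it read 5.49, 5.42 and 5.54 in controls and 4.81, 4.37 and 4.43 after OHT. Every OHT culture lay below every control culture, and the 2abc lines cl324.9 and cl324.13 were the lowest. The change was -0.55 in 2ac (SE 0.11, limma adjusted p = 0.0313), leaving 68.5% of the control signal. In 2abc it was -0.95 (SE 0.11, adjusted p = 0.00804), leaving 51.7%. Over the 6 lines it was -0.75 (SE 0.08, adjusted p = 0.00255). The 2abc change was lower than the 2ac change by 0.41 (95% interval of 2abc minus 2ac -0.78 to -0.03, limma adjusted p = 0.434), so the difference between genotypes did not pass the correction. Kdm4b, deleted in 2abc alone, did not pass that contrast either (-2.34, SE 0.26, limma adjusted p = 0.288). A missing call there thus does not show equal changes. The unscaled processed signal was also lower in 6 of 6 lines, with group means of 22100 ± 1190 and 14600 ± 2620 in 2ac and 23400 ± 1450 and 13300 ± 2530 in 2abc (SD, n = 3). The call over the 6 lines held in 18 of 18 alternative settings. That in 2abc was lost without cl324.9 (adjusted p = 0.066) or cl324.13 (0.0674), in a range of 0.00144 to 0.0674, and that in 2ac was lost in 7 of 19 settings, with the highest value without cl5 (adjusted p = 0.16).

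A second Kdm2b probe (A_55_P2065154) moved the same way in each line. Its change ran from -0.65 to -0.41 in the 2ac lines and from -1.44 to -0.82 in the 2abc lines. In a fit of all kept probes, where 5.89%, 8.75% and 14.3% of probes were called lower (2ac, 2abc, 6 lines in that order), it changed by -0.55 (SE 0.13, limma adjusted p = 0.0518), -1.12 (SE 0.13, adjusted p = 0.00874) and -0.84 (SE 0.09, adjusted p = 0.00329). The 2 probes read the same RNA samples and are no independent replicates.

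Kdm2a, the paralog of Kdm2b with the same CXXC finger and substrate, went the other way without passing. Its signal was 0.13 to 0.30 in the 2ac controls and 0.29 to 0.50 after OHT, and 0.32 to 0.47 and 0.46 to 0.52 in 2abc. It was higher after OHT in 6 of 6 lines, by 0.04 to 0.20, and the control and OHT ranges overlapped in both genotypes. The change was 0.15 in 2ac (SE 0.08, limma adjusted p = 0.258), 0.12 in 2abc (SE 0.08, adjusted p = 0.315) and 0.14 over the 6 lines (SE 0.05, adjusted p = 0.112). The second probe was higher in 5 of 6 lines. It changed by 0.27 in 2abc (SE 0.09, limma adjusted p = 0.0948) and 0.20 over the 6 lines (SE 0.06, adjusted p = 0.0699).

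**Figure D2:**
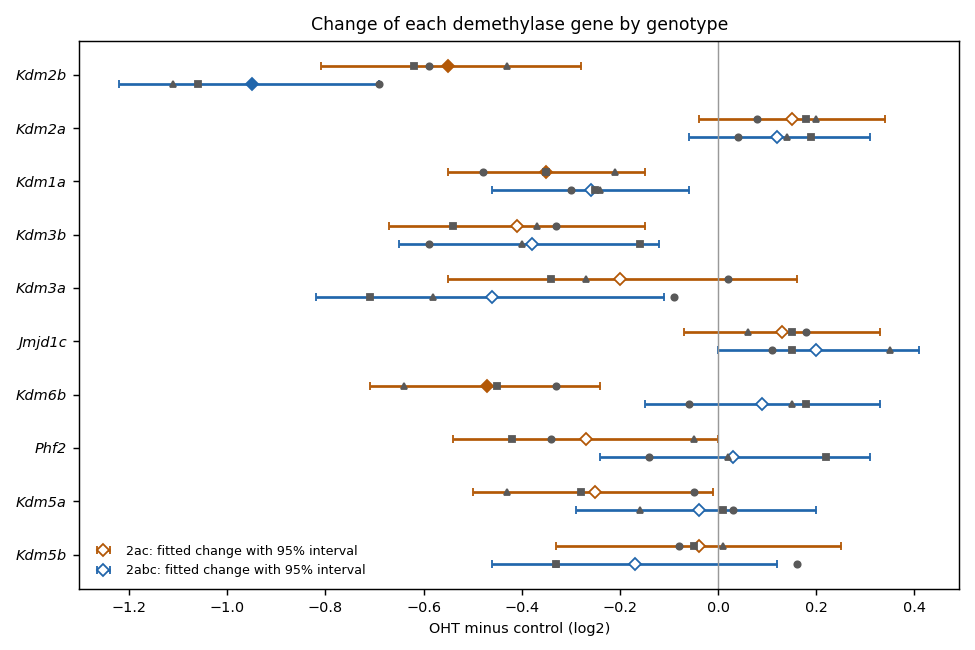
OHT minus control in log2 (horizontal axis) for each of the 10 genes. Small grey symbols are the 3 lines of a genotype (circle cl4 or cl280.4, square cl5 or cl324.9, triangle cl6 or cl324.13), and diamonds with bars are the fitted change with its 95% interval in 2ac (brown) and 2abc (blue), filled where the adjusted p was under 0.05. Filled diamonds are Kdm2b in both genotypes and Kdm1a and Kdm6b in 2ac, all to the left of 0.

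Kdm1a, the amine oxidase of H3K4, fell in 2ac and over the 6 lines. Its probe (A_55_P1993820, chromosome 4) read 5.54, 5.35 and 5.25 in the controls of cl4, cl5 and cl6 and 5.06, 5.0 and 5.04 after OHT. In cl280.4, cl324.9 and cl324.13 it read 5.31, 5.42 and 5.36 in controls and 5.01, 5.18 and 5.12 after OHT. Within each genotype the OHT cultures lay below the controls, and the decrease per line was 0.21 to 0.48. The change was -0.35 in 2ac (SE 0.08, limma adjusted p = 0.0473), -0.26 in 2abc (SE 0.08, adjusted p = 0.08) and -0.30 over the 6 lines (SE 0.06, adjusted p = 0.0136), which left 81.0% of the control signal. The 2ac call lay at the threshold. It was lost in 10 of 19 settings, among them median scaling (adjusted p = 0.158) and each fit that left out 1 line (0.0546 to 0.211), in a range of 0.0223 to 0.211. The call over the 6 lines was lost in 5 of 18, with median scaling (0.0623) and without cl324.9, cl324.13, cl4 or cl5 (0.0522 to 0.0542).

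Kdm1a lies on chromosome 4, as do the deleted Kdm4a and Kdm4c. Of 960 tested genes of that chromosome, 24.6% were called lower and 13.2% higher over the 6 lines, against 14.6% and 13.9% of all features. In 2ac 13.1% were called lower and 5.73% higher, against 6.43% and 5.75% of all features. The shares in 2abc were 14.8% and 8.54%, against 8.97% and 8.72%. Over the 6 lines, the 20 tested genes nearest to Kdm1a, 10 on each side, had a median change of 0.05, with 3 called lower and 1 higher. The part of the chromosome in the Kdm1a result was not tested.

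Among the H3K9 demethylases, Kdm3b fell over the 6 lines. Its probe (A_55_P1970665) read 0.22, 0.28 and 0.03 in the controls of cl4, cl5 and cl6 and -0.11, -0.26 and -0.33 after OHT. In cl280.4, cl324.9 and cl324.13 it read 0.29, 0.03 and 0.09 in controls and -0.31, -0.13 and -0.31 after OHT. Every OHT culture lay below every control culture, with the smallest decrease in cl324.9 (0.16). The change was -0.41 (SE 0.11) in 2ac and -0.38 (SE 0.11) in 2abc, with limma adjusted p = 0.0584 and 0.0577, and -0.40 over the 6 lines (SE 0.08, adjusted p = 0.013), leaving 75.8% of the control signal. In the unscaled signal it was lower in 5 of 6 lines, since cl324.9 read 523 in control and 544 after OHT. It passed in 6 of 19 alternative settings in 2ac (limma adjusted p 0.0274 to 0.257) and in 5 of 19 in 2abc (0.0281 to 0.237). The fit without the line as a block was among both (0.033 in 2ac and 0.0351 in 2abc). The call over the 6 lines was lost without cl324.13 (0.0529) or cl5 (0.0535). The other Kdm3b probe was above background on 1 of 13 arrays and was not tested.

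Kdm3a, which is the close relative of Kdm3b, did not pass. Its levels were 4.38 to 4.57 in the 2ac controls and 4.11 to 4.50 after OHT, and 4.30 to 4.51 and 3.72 to 4.42 in 2abc. The lines differed. The change was -0.71 in cl324.9 and -0.58 in cl324.13, against -0.09 in cl280.4, and 0.02 in cl4 against -0.34 in cl5 and -0.27 in cl6. In 2abc it averaged -0.46 (SE 0.14, limma adjusted p = 0.079) and over the 6 lines -0.33 (SE 0.10, adjusted p = 0.0593).

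Jmjd1c, the third member of the Kdm3 family, was higher after OHT in 6 of 6 lines, by 0.06 to 0.35. It changed by 0.13 in 2ac (SE 0.08, limma adjusted p = 0.367), 0.20 in 2abc (SE 0.08, adjusted p = 0.152) and 0.17 over the 6 lines (SE 0.06, adjusted p = 0.0858). Its controls read 2.69 to 2.82 in 2ac and 2.50 to 2.80 in 2abc, and the control and OHT ranges overlapped in both genotypes. Phf2 read -1.45 to -1.27 in the 2ac controls and -1.79 to -1.33 after OHT. Its change was -0.27 (SE 0.11) in 2ac and 0.03 (SE 0.11) in 2abc, with limma adjusted p = 0.174 and 0.873.

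Kdm6b, which removes methyl groups from H3K27, fell in the 2ac lines. The controls of cl4, cl5 and cl6 read 1.38, 1.34 and 1.5 and the OHT cultures 1.06, 0.89 and 0.86. In cl280.4, cl324.9 and cl324.13 the controls read 1.81, 1.61 and 1.71 and the OHT cultures 1.75, 1.80 and 1.86. The 2ac groups did not overlap, while the 2abc groups did. The change was -0.47 in 2ac (SE 0.10, limma adjusted p = 0.0338), leaving 71.9% of the control signal, and 0.09 in 2abc (SE 0.10, 95% interval -0.15 to 0.33, adjusted p = 0.57). The 2abc change exceeded the 2ac change by 0.57 (SE 0.14, 95% interval 0.23 to 0.90, limma adjusted p = 0.336). The contrast of the genotypes called 0 of the 10 genes, as it called 0.0% of all features, and at an unadjusted p under 0.05 it held 2 of the 10 and 2516 of 22967 features. It did not call Kdm4b either, which was deleted in 2abc alone. On the slide that cl6 shared with the 2abc lines, Kdm6b changed by -0.64 in cl6 and by -0.06 to 0.18 in the 2abc lines. That is 1 line of 2ac, and the part of the slide in the Kdm6b result was not tested. The 2ac call was lost in 8 of 19 settings (adjusted p 0.00914 to 0.15), including median scaling (0.0704) and 5 of the 6 fits that left out 1 line, cl280.4 being the exception, with 0.15 without cl5.

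The H3K4 demethylases Kdm5a and Kdm5b did not pass in the fit over genes. Kdm5a read 2.16 to 2.20 in the 2ac controls and 1.72 to 2.15 after OHT, a change of -0.25 (SE 0.10, limma adjusted p = 0.162) that ran from -0.05 in cl4 to -0.43 in cl6. In 2abc its change was -0.04 (SE 0.10, adjusted p = 0.81). The 2 Kdm5b probes gave unlike values. The probe that stood for the gene changed by -0.04 in 2ac and -0.17 in 2abc (SE 0.12 and limma adjusted p = 0.882 and 0.376). The other (A_52_P601980) changed by 0.06 in 2ac and fell by 0.46 in 2abc (SE 0.11, limma adjusted p = 0.0431 over all kept probes), with -0.28, -0.38 and -0.74 in cl280.4, cl324.9 and cl324.13. Of the genes with 2 kept probes, Kdm2b is thus the one whose probes were both called in 2abc.

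For 3 of the 10 genes the control ranges of the 2 genotypes did not overlap, against 33.5% of all features. The 2abc controls lay above all 2ac controls for Kdm6b (1.61 to 1.81 against 1.34 to 1.5) and Kdm2a (0.32 to 0.47 against 0.13 to 0.30), and below them for Kdm5a (1.88 to 2.01 against 2.16 to 2.20). Such separation was counted in either direction, and its share among the 10 genes was near that of all features. The 2ac lines cl4 and cl5 were on other slides than the 2abc lines, so slide and genotype are mixed here. On the shared slide, the cl6 control read 1.5 for Kdm6b, 0.30 for Kdm2a and 2.16 for Kdm5a, each outside the 2abc range. That is 1 culture, and its Kdm2a value lay next to the lowest 2abc control (0.32). The part of the slide in these differences was not tested.

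The remaining JmjC and LSD genes were counted in the same way. Of 19 such genes beside the Kdm4 family, 15 were tested. The shares of all features called higher and lower were 5.75% and 6.43% in 2ac, 8.72% and 8.97% in 2abc, and 13.9% and 14.6% over the 6 lines. In 2ac 0 were called higher and 1 lower, Jmjd7, a JmjC protein with lysyl hydroxylase activity (-0.38, SE 0.08, limma adjusted p = 0.0412). In 2abc 0 were called higher and 1 lower, Kdm1b, the second LSD-type H3K4 demethylase (-0.39, SE 0.09, adjusted p = 0.0384). Over the 6 lines Kdm1b (-0.37) and Jmjd7 (-0.26) fell and Kdm8 rose (0.23, SE 0.06, adjusted p = 0.036). Kdm1b was lower after OHT in 6 of 6 lines (-0.54 to -0.20) and its call over the 6 lines held in 18 of 18 settings, while that in 2abc was lost in 7 of 19, among them the fits without cl324.9, cl324.13, cl4 or cl5. The Jmjd7 call was lost in 10 of 19 settings in 2ac, including each fit without 1 line, and in 6 of 18 over the 6 lines, and the Kdm8 call in 6 of 18. Both of the latter were lost without cl324.9, cl324.13, cl4 or cl5. The 15 had a median change of 0.06 in 2ac and -0.15 in 2abc, and of -0.06 when all 6 lines were averaged.

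Known partner proteins of the members were counted from a list of 26 genes, of which 25 were tested. In 2ac 1 was called higher and 0 lower, in 2abc 1 higher and 7 lower, and over the 6 lines 2 higher and 6 lower, with medians of -0.05, -0.12 and -0.08. Of all features, 5.75% and 6.43% were called higher and lower in 2ac, 8.72% and 8.97% in 2abc, and 13.9% and 14.6% over the 6 lines. Of the 8 Kdm2b partners, all tested, Usp7, a deubiquitinase of the variant Polycomb complex, fell in 2abc by 0.60 (SE 0.09, limma adjusted p = 0.0128), and Bcorl1, the relative of the scaffold protein Bcor, by 0.79 (SE 0.16, adjusted p = 0.0272). Both were lower in 6 of 6 lines and were called over the 6 lines in 18 of 18 settings. Their 2abc calls were lost in 2 and 5 of 19 settings, for both without cl324.9 or cl324.13 and for Bcorl1 also without cl5. Skp1, which binds the F-box of Kdm2b, rose in 2ac by 0.35 (SE 0.08, limma adjusted p = 0.0446). That call was kept in 8 of 19 settings and in no fit without 1 line.

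Of 10 tested partners of Kdm1a, 0 were called in 2ac, and in 2abc 1 was higher and 2 lower, against 8.72% and 8.97% of all features. The deacetylase gene Hdac1, also on chromosome 4, fell in 2abc by 0.46 (SE 0.08, limma adjusted p = 0.0159) and the CoREST gene Rcor2 by 0.87 (SE 0.16, adjusted p = 0.0198). Phf21a, which reads unmethylated H3K4 in the CoREST complex, rose by 1.04 (SE 0.18, adjusted p = 0.0181), with 0.48 in cl280.4, 1.24 in cl324.9 and 1.40 in cl324.13. The 2abc calls of Hdac1, Rcor2 and Phf21a were each lost in 4 of 19 settings, among them the fits without cl324.9 or cl324.13. Hdac1 and Rcor2 were lower in 6 of 6 lines, and their calls over the 6 lines (-0.38 and -0.68) held in 18 of 18 settings, and that of Phf21a (0.68) in 16 of 18, being lost without cl324.9 or cl5. Of the 6 Kdm5 partners, which belong to the Sin3 complex or bind its subunits, 0 were called in 2ac. In 2abc, where 8.97% of all features were called lower, 3 of them were lower. These were Brms1 (-0.53, limma adjusted p = 0.0244), Phf12 (-0.37, adjusted p = 0.0381) and, named after its value was seen, Ing2 (-0.49, adjusted p = 0.0387). These calls were lost in 6, 9 and 10 of 19 settings, for each without cl324.9, cl324.13 or cl5, for Brms1 and Phf12 also without cl4, for Ing2 also without cl280.4, and for Phf12 and Ing2 also without the line as a block. The Phf2 partner Arid5b was not called.

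**Figure D3:**
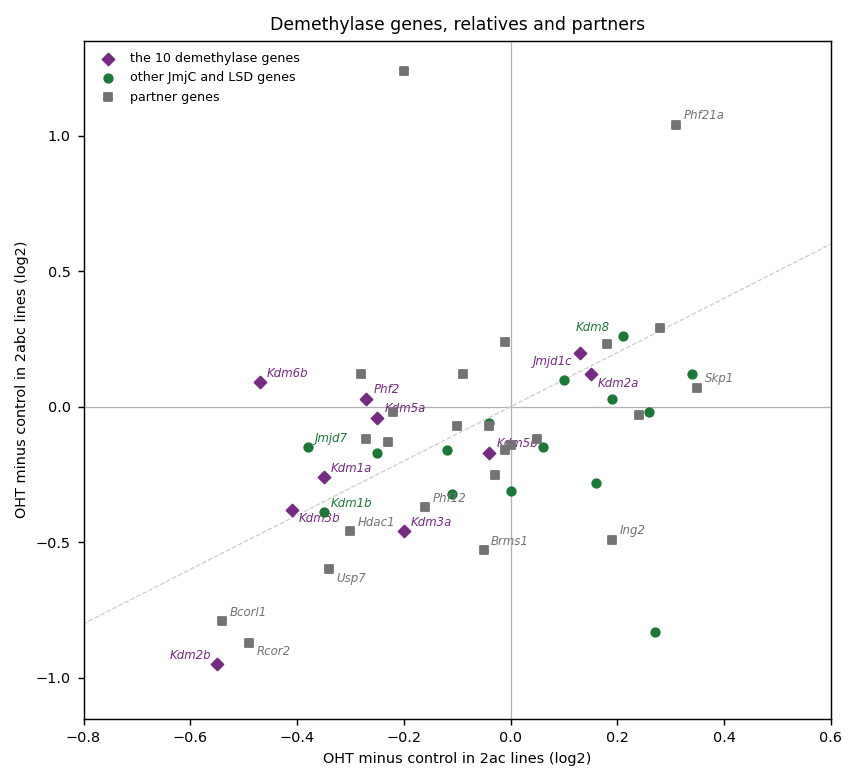
Log2 change after OHT in the 2ac lines (horizontal axis) and in the 2abc lines (vertical axis) for the 10 demethylase genes (purple diamonds), 15 other JmjC and LSD genes (green circles) and 25 partner genes (grey squares). Names stand beside all members and beside other genes called in 2ac, 2abc or over the 6 lines, and the dashed line marks equal change. Kdm2b lies lowest among the members, at -0.55 and -0.95, and Kdm6b lies off the dashed line at -0.47 and 0.09.

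How far the calls rest on single settings differed between the genes. Kdm2b was below the threshold over the 6 lines in every alternative run, with an adjusted p of 0.000285 to 0.0164 (limma). For Kdm3b the range was 0.00377 to 0.0535 and for Kdm1a 0.00634 to 0.0623. Kdm6b passed over the 6 lines in 1 of 18 settings.

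**Figure D4:**
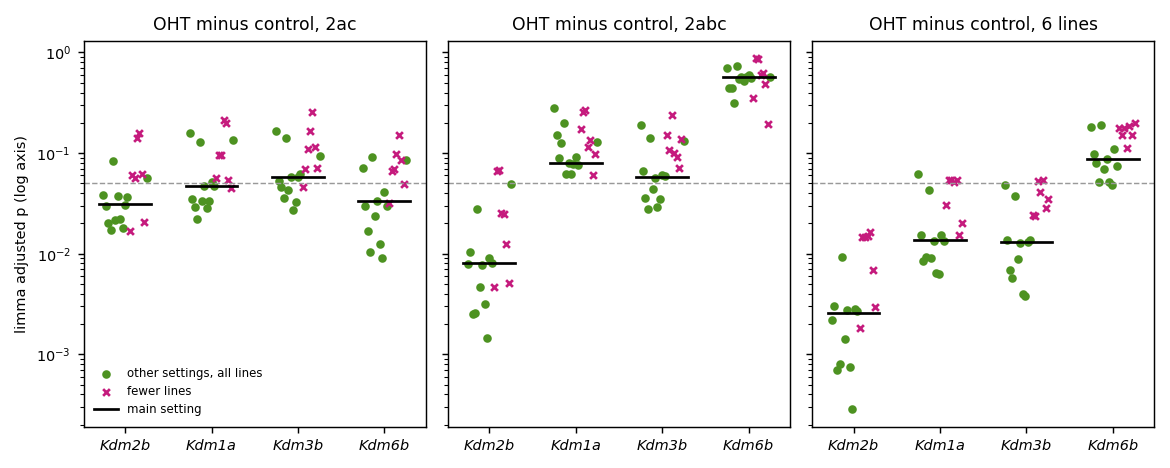
Limma adjusted p (vertical log axis) of Kdm2b, Kdm1a, Kdm3b and Kdm6b in the 2ac lines, the 2abc lines and over the 6 lines. The black bar is the main setting, green points are other settings with all lines, pink crosses are fits with fewer lines, and the dashed line is 0.05. Kdm2b lies below the dashed line in all settings over the 6 lines, and in the 2ac panel all 4 genes have points on both sides of it.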

How the data were processed

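Signals came from 13 arrays of 12 samples, with 2 arrays of the OHT culture of line cl4 (r = 0.994; largest difference of a member 0.22 log2) averaged and counted as 1 sample. The deposited intensity values are processed signals of Agilent Feature Extraction (version 11.0.1.1), background-subtracted and not scaled between arrays, as its headers state. The other deposited flags used were the outlier, saturation and above-background calls of that software. A series-wide table of log2 values, deposited by the authors, served as an alternative. The submitters' processing notes name limma without a version, and the table is named loess, with the kind of loess not given in the sources used.

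Control and outlier-flagged spots (184 to 253 of 59305 per array) were left out, and log2 processed signal minus each array's 75th percentile was averaged over spots of a probe. Names came from the probes' accessions and a RefSeq table (GRCm38.p6); 27656 of 55681 carried 1 symbol. Probes were kept if, in at least 1 of 4 groups, all arrays read them well above background, and the brightest stood for a gene. Changes were fitted with limma 3.58.1 in R 4.3.3 (lmFit, eBayes) on the 12 samples together, the line being a fixed block, with 4 residual degrees of freedom and Benjamini-Hochberg adjustment over all 22967 features. The number of lines, 3 per genotype and described as independently established, limits the precision. The code was tested on simulated data.

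Pairing comes from the design, since both cultures of a pair are 1 line; their deviations from the group means correlated at 0.16 (cl4), 0.46 (cl5), 0.50 (cl6), 0.03 (cl280.4), -0.02 (cl324.9) and -0.01 (cl324.13). The 3 slides held 2, 3 and 8 arrays, and apart from 1 array of cl4 each line's cultures shared a slide. Alternatives covered scaling, background correction, filters, probes, blocks and lines. The normexp alternative used the median spot signal, with an offset of 50, in place of the mean. All members, the deleted genes and, from the lists of relatives and partners, up to 6 called genes per comparison were named. One gene of the partner list is not reported here. Members and lists were chosen with earlier results of these data known.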

Additional observations from a re-analysis of the deposited data

How the results depend on the processing

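Of the values of the 10 genes under other settings, 669 kept their direction and side of the threshold, 34 lost a call, 21 gained one and 16 changed sign, each of the last from a main value between -0.04 and 0.07. Those were Kdm5b in 2ac (0.01 in the deposited table and 0.01 as the mean over probes), Kdm5a in 2abc (0.01 in the deposited table, and -0.08 to 0.02 leaving out 1 line) and Phf2 in 2abc (-0.06 to 0.12 leaving out 1 line). For 2abc minus 2ac, Kdm2a had 0.00 with median scaling, 0.01 with normexp, 0.01 in the deposited table, 0.06 as the mean over probes and 0.04 without cl6 and cl280.4 together, an alternative chosen after seeing the data, and -0.07 to 0.01 leaving out 1 line. Kdm3b had -0.01 with normexp, -0.01 in the deposited table and -0.08 to 0.13 leaving out 1 line, and Jmjd1c -0.00 to 0.12.

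Members called in 2ac numbered 3, against 1 with median scaling, 0 with no filter and 0 with the 2ac samples alone, and 0 to 3 leaving out 1 line. In 2abc 1 was called, against 2 with normexp, 3 in the deposited table, 2 with the filter on every array, 2 with the slide as the block, 2 with no replicate block (pairing ignored), 3 without cl6 and cl280.4, and 0 to 2 leaving out 1 line. Over the 6 lines it was 3, and 1 to 4 leaving out 1 line, the 1 without cl324.13 or cl5. All features called in 2ac numbered 2797, against 884 with no filter, 1583 with the 2ac samples alone and 149 (without cl5) to 3441 (without cl280.4) leaving out 1 line. In 2abc they numbered 4062, against 1521, 987 with the 2abc samples alone, 6448 without cl6 and cl280.4, and 215 (without cl324.13) to 4702 (without cl280.4). Over the 6 lines they numbered 6552, against 4337 with no filter and 3546 to 6691. The contrast of the genotypes called 0 features in the 18 alternatives. Fits without a line rest on fewer samples, and the no-filter fit adjusts over 36983 features. For the other settings the cause was not tested. Signal limited 1 member probe, the other probe of Kdm3b, which was above background on 1 of 13 arrays and gave no test.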
